A study of Mus musculus with 2 samples.

Results

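38 genes of the cell division cycle were followed in 2 droplet RNA libraries of the mouse cochlea, together with the cells that express them. The genes were taken by symbol from a fixed list, and all 38 were among the 32285 genes of both count tables. A cell was called cycling when it held unique molecular identifiers (UMIs, each standing for 1 captured RNA molecule) of at least 3 of the 38 genes, with Mki67 or Top2a among them. This gave 194 cycling cells of 16618 in noise-only ears and 271 of 17536 in drug ears.

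The tissue was the sensory epithelium of the inner ear of wild-type C57BL/6J mice, 4 to 6 weeks old. All ears received noise at 105 dB in an octave band of 8 to 16 kHz for 2 hours and were dissected 2 days later, so neither library shows the cochlea before noise. In the drug group a compound labelled only as Drug was given at 90 mg/ml before the noise. The noise-only group was the untreated contralateral ear of the same mice, so any drug that reached the other ear through the body would act on both groups. Each group was 5 ears pooled into 1 library, which leaves no replicate: no p-value can be given, and every interval below is a 95% interval for counting error only. Cells with at least 300 genes and 500 UMIs, at most 20% mitochondrial UMIs and no doublet call were kept. The kept cells held 33790872 UMIs (noise-only) and 30725156 UMIs (drug), and the median cell had 1128 and 1128.5 UMIs. Cell classes were named from marker genes and carry the ending "-like". The label "sensory epithelium" did not cover the capture: 106 noise-only and 155 drug cells were hair cell-like, with Otof and Xirp2 among the leading genes of the cluster, against 6758 and 4021 Schwann or satellite glia-like cells. The libraries shared 111 barcode sequences.

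Cell division runs on cyclin-dependent kinases. D-type cyclins carry a growth signal into G1, E2F factors then switch on the replication genes for S phase, and cyclins A and B with Cdk1 drive mitosis, which ends when the anaphase-promoting complex (APC/C) marks the cyclins for destruction. Hair cells and supporting cells of the mature mammalian cochlea are known to be almost entirely out of the cycle, whereas blood precursors in bone and some tissue macrophages divide throughout life. Mitotic genes are commonly switched by promoters with a cell cycle homology region (CHR) and CCAAT boxes, and replication genes by E2F sites.

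The promoters of the genes that define and time the cycling cells are printed here because the mitotic and the replication genes are read separately below. Promoter windows of 250 bases before to 50 after the RefSeq start (build GRCm38.p6) were at hand for 30 of the 38 genes. The motifs searched on both strands were CHR as TTTGAA or TTCGAA, the CCAAT box as CCAAT, and E2F as TTTCGCGC, TTTGGCGC, TTTCCCGC or TTTGCCGC. Shown 5′ to 3′ in the direction of the gene are the last 150 bases before the start, with every motif match in capitals. Mki67 lies at chr7:135716380-135716529 on the minus strand, Top2a at chr11:99024190-99024339 on the minus strand, Cdk1 at chr10:69352913-69353062 on the minus strand, Cdc20 at chr4:118437344-118437493 on the minus strand and Mcm6 at chr1:128359706-128359855 on the minus strand.
Mki67: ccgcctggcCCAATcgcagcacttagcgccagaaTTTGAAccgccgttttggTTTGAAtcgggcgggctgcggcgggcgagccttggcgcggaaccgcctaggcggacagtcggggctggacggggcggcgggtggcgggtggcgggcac
Top2a: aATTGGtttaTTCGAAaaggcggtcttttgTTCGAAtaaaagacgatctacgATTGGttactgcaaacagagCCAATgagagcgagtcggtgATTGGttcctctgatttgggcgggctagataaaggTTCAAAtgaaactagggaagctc
Cdk1: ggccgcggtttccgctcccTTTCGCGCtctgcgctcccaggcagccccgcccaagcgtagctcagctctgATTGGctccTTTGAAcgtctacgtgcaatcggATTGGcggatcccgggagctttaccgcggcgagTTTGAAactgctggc
Cdc20: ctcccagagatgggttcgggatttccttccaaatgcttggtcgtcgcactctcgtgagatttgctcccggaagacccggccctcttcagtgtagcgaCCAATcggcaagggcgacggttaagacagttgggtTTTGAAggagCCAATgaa
Mcm6: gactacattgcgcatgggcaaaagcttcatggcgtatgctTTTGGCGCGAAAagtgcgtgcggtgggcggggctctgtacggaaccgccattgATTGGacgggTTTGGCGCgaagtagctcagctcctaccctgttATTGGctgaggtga
The windows of Mki67, Top2a, Cdk1 and Cdc20 held CHR and CCAAT matches, and that of Cdk1 also 1 E2F match. That of Mcm6 held 3 E2F matches, of which a pair overlap, with CCAAT matches and no CHR match. Over the roles, CHR was present in 7 of 8 windows of the mitotic cyclins and kinases and 7 of 9 of the chromosome and spindle genes, against 2 of 10 of the replication genes and 21.7% of all 27025 genes with a window. CCAAT was present in 8 of 8, 7 of 9 and 8 of 10, against 41.1% of all genes. An E2F match was present in 4 of 10 replication genes, 1 of 8 mitotic genes and 2.60% of all genes. These matches describe the letters in the windows and not binding.

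Most cycling cells lay in classes of blood cells and macrophages. These are called blood cell classes below, although the macrophage-like class can include macrophages resident in the tissue. The 5 blood cell classes (macrophage, neutrophil, erythroid precursor, B lineage and T or NK cell-like) held 151 of the 194 cycling noise-only cells (77.8%, 71.3 to 83.5) and 213 of the 271 cycling drug cells (78.6%, 73.2 to 83.3). In those classes the cycling share was 10.5% (8.98 to 12.2) in noise-only ears and 10.7% (9.39 to 12.2) in drug ears. In all other cells together it was 0.283% (43 of 15182) and 0.373% (58 of 15548). These cycling cells of other classes held UMIs of blood genes more often than the other cells there: Lyz2 in 10 of 43 and 8 of 58, C1qa in 7 of 43 and 6 of 58, and Ptprc in 3 of 43 and 3 of 58, against 1.94%, 2.11% and 0.231% of the noise-only cells that were not cycling and 3.25%, 2.24% and 0.245% of the drug cells. For 2 further blood genes, Hbb-bs was in 15 of 43 and 24 of 58, against 23.9% and 27.0% of the cells that were not cycling. S100a8 was in 2 of 43 and 2 of 58, against 0.958% and 2.61%. Cycling cells as a whole were also deeper than the median kept cell (medians below), and the part of depth in these shares was not tested. Nor was the part of such blood UMIs in the cycling share of these classes. Macrophage-like cells gave the most cycling cells in the noise-only library, 87 of the 194, and again in the drug library, 92 of the 271. Neutrophil-like cells made up 18 and 58 of them, and erythroid precursor-like cells 26 and 49.

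**Figure D1:**
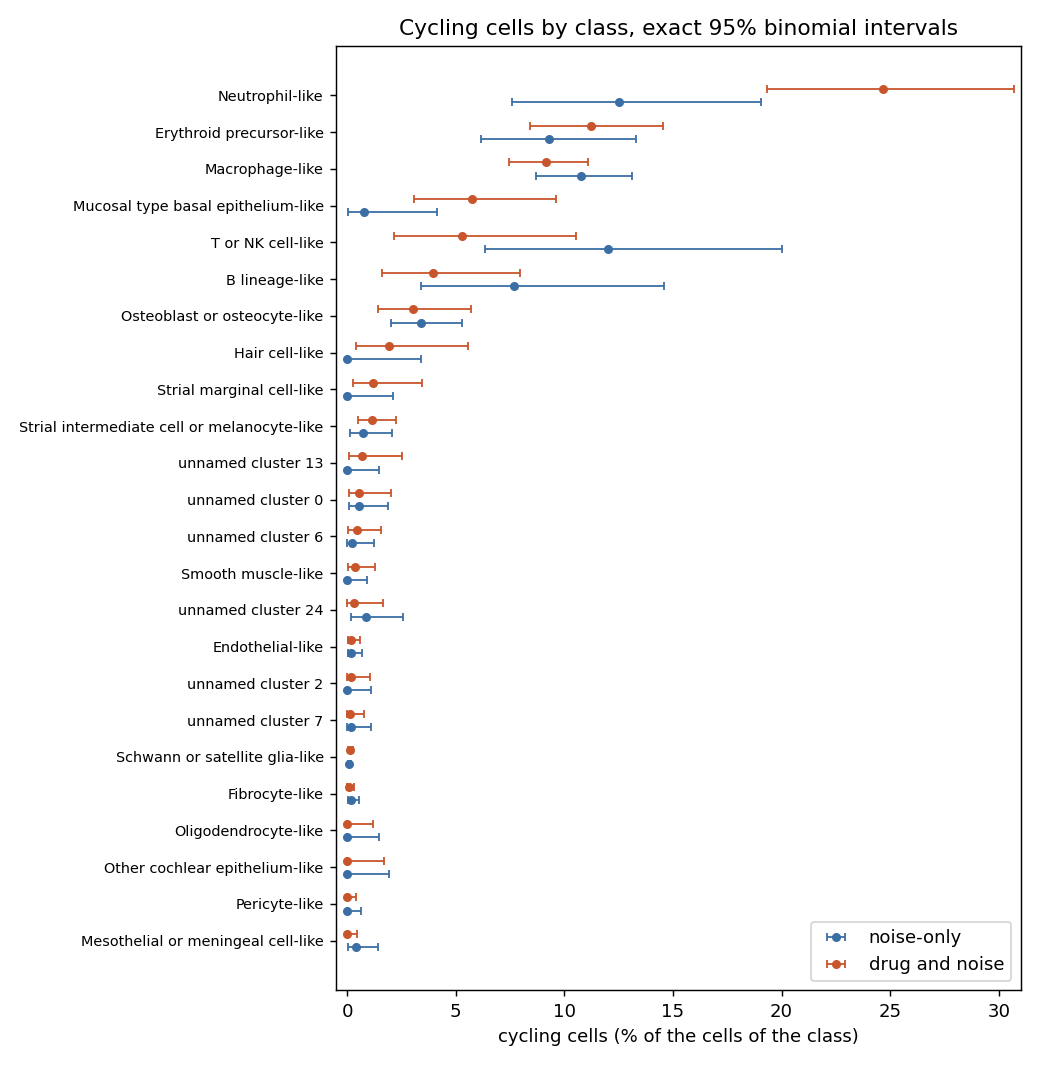
Share of cycling cells (percent of the cells of a class, x axis) in each class with at least 100 cells in each library, noise-only in blue and drug in orange, with exact 95% binomial intervals. The blood cell classes lie at the top together with the mucosal epithelium of the drug library. Below them, the osteoblast or osteocyte-like class and the hair cell-like class of the drug library lie above 0, the latter on few cells. Most of the glial and other connective tissue classes lie near 0.

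Over all cells the cycling share was 1.17% (1.01 to 1.34) in noise-only ears and 1.55% (1.37 to 1.74) in drug ears, a ratio of 1.32 (1.10 to 1.60). The classes were not captured in equal numbers: blood cell classes counted 1436 noise-only and 1988 drug cells. With classes given their noise-only weights, the shares were 1.16% and 1.24%, a ratio of 1.06. Over the 5 blood cell classes the ratio was 1.02 (0.823 to 1.26). With 1 capture per group, a difference in blood cell numbers between the ears and one between the captures cannot be told apart.

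The neutrophil-like class was the blood class whose ratio had an interval that did not include 1. It held 18 cycling cells of 144 (12.5%, 7.58 to 19.0) in noise-only ears and 58 of 235 (24.7%, 19.3 to 30.7) in drug ears, a ratio of 1.97 (1.15 to 3.56). Neutrophil-like cycling cells carried medians of 9369 UMIs (noise-only) and 4501.5 UMIs (drug). After each cell was thinned to 1000 UMIs, with shallower cells left out, the shares were 10.0% of 100 cells and 18.5% of 178. The interval of the ratio above is for cells before thinning, and none is given here for the thinned cells. Among cells with at least 1000 genes they were 66.7% and 69.2%, a ratio of 1.04. That limit itself selects cells in which cycling was frequent, so it cannot tell in which cells of the class the gap lay. Of the other blood classes, macrophage-like cells were at 10.8% (8.71 to 13.1) and 9.15% (7.44 to 11.1), and erythroid precursor-like cells at 9.29% (6.16 to 13.3) and 11.2% (8.41 to 14.6). B lineage-like cells were at 8 of 104 and 7 of 177, and T or NK cell-like cells at 12 of 100 and 7 of 133, a ratio of 0.439 (0.146 to 1.21). For these 4 classes the interval of the ratio included 1. The macrophage-like ratio turned from 0.849 to 1.26 (21.7% and 27.3%) among cells with at least 1000 genes, and to 0.392 with cell cycle genes kept in the clustering.

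Cycling macrophages were found in each of the 3 macrophage-like clusters. The largest, with Mrc1 and the class II genes H2-Aa and H2-Ab1 among its leading genes, held 64 of 452 noise-only and 83 of 707 drug cells. The cluster led by Aif1 and C1qa held 18 of 241 and 6 of 188, and that led by P2ry12 and Siglech, which are microglial genes, held 5 of 115 and 3 of 111. The complement gene C1qa was detected in 77 of the 87 cycling noise-only cells and 70 of the 92 cycling drug cells. Ccr2, the chemokine receptor of blood monocytes, was detected in 10 of 87 and 27 of 92, and the monocyte gene Ly6c2 in 1 of 87 and 17 of 92. In the macrophage-like cells that were not cycling, Ccr2 was detected in 12.5% and 12.5% and Ly6c2 in 4.85% and 6.46%. The cycling macrophage-like cells of the drug library thus more often held UMIs of these 2 monocyte genes, although the library had fewer UMIs per cycling macrophage (median 3184 against 4060).

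The cycling neutrophil-like cells of the libraries differed in their stage genes. Mpo, Elane, Prtn3 and Ctsg encode primary granule proteins, made by promyelocytes, while Ltf, Camp and Ngp belong to the later secondary granules. Mpo was detected in 16 of 18 cycling noise-only cells and 14 of 58 cycling drug cells, Ctsg in 17 and 13, and Ms4a3, a progenitor gene, in 18 and 36. Ltf went the other way, with 2 of 18 and 46 of 58, while Ngp was in 12 of 18 and 50 of 58 and Camp in 15 of 18 and 48 of 58. Retnlg, a gene of mature neutrophils, was in 1 of 18 and 14 of 58 cycling cells and in 95.2% and 77.4% of the cells of the class that were not cycling. Of the genes given here, Mpo, Ctsg and Ltf differed most in their shares, while Ngp and Camp were in most cycling cells of each library.

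**Figure D2:**
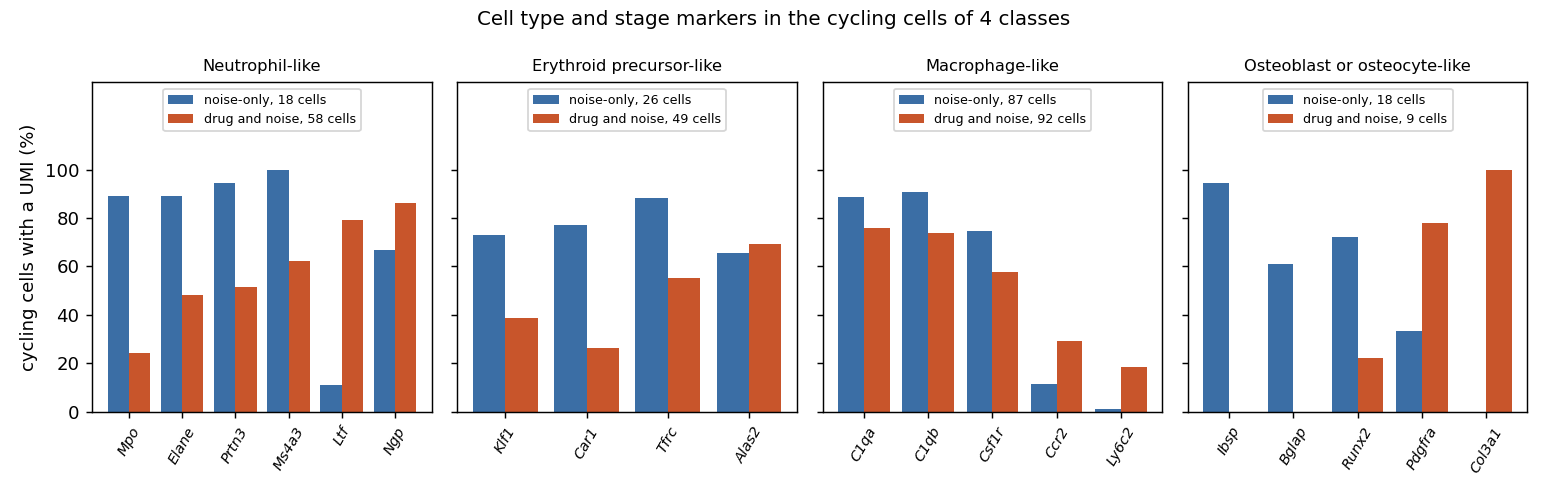
Percent of cycling cells with at least 1 UMI of a marker gene (y axis) in 4 classes, noise-only in blue and drug in orange, with the number of cycling cells in each key. Mpo, Elane, Klf1, Car1 and Ibsp are more frequent in the noise-only cells, and Ltf, Ccr2, Ly6c2 and Col3a1 in the drug cells.

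In the erythroid precursor-like class, globin genes were in nearly every cell of the class in each library. Klf1, a transcription factor of early red cell precursors, was detected in 19 of 26 cycling noise-only cells and 19 of 49 cycling drug cells. Car1, a carbonic anhydrase, was in 20 of 26 and 13 of 49, and the transferrin receptor Tfrc in 23 of 26 and 27 of 49. The depth of these cells differed as well, with a median of 5243.5 UMIs in the noise-only and 2735 in the drug cycling cells, and its part in the marker shares was not tested.

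The lymphoid classes differed in how far their cycling cells carried the genes that name the class. Of the T or NK cell-like cycling cells, Cd3e was detected in 1 of 12 and 1 of 7, whereas Cd34, a gene of blood progenitors, was in 5 of 12 and 2 of 7 and the progenitor factor Myb in 5 of 12 and 3 of 7. In the other cells of that class Cd34 was in 1.14% and 1.59%. By Cd3e, the only marker of the class given here, its name is therefore not borne out for most of its cycling cells. B lineage-like cycling cells held Cd79a in 7 of 8 and 7 of 7. Vpreb1, part of the surrogate light chain of pre-B cells, was in 3 of 8 and 2 of 7 of them, against 2.08% and 1.18% of the other cells of the class.

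Outside the blood cell classes, the osteoblast or osteocyte-like class held the most cycling cells in the noise-only library: 18 of 533 (3.38%, 2.01 to 5.28), against 9 of 296 (3.04%, 1.40 to 5.69) in the drug library. These were not the same cells by their markers. Ibsp, a bone matrix protein, was detected in 17 of 18 noise-only and 0 of 9 drug cycling cells, Bglap, osteocalcin, in 11 and 0, and Sp7, the osteoblast transcription factor, in 11 and 0. Col3a1, the fibrillar collagen of fibroblasts, was in 0 of 18 and 9 of 9, and Pdgfra, a receptor of mesenchymal precursors, in 6 of 18 and 7 of 9. The 9 drug cells thus went against the bone name of their class, and with finer clustering (resolution 2) the osteoblast or osteocyte-like class held 17 cycling noise-only cells of 310 and none of 172 in the drug library. At 0 of 172 a share of up to 1.74% is still allowed.

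Among classes that can belong to the cochlea, other than macrophages, strial intermediate cell or melanocyte-like cells gave the clearest signal. These can be pigment cells of the stria vascularis or other melanocytes, which the markers used do not separate. The class held 3 cycling cells of 421 (0.713%) and 8 of 692 (1.16%), a ratio of 1.62 with an interval of 0.389 to 9.49. Dct, a melanin pathway enzyme, was detected in 3 of 3 and 8 of 8 of them. Their median number of cell cycle genes was 21 and 18, as high as in the blood classes, while the macrophage genes C1qa and Lyz2 were found in 0 of 3 and 1 of 8, and in 1 of 3 and 1 of 8. The level of Mki67 over the class was 8.44 and 22.1 CPM (UMIs of the gene divided by all UMIs of the class and scaled to a fixed total, the same for every value), from 8 and 27 UMIs, and Top2a was at 14.8 and 32.0 CPM, from 14 and 39 UMIs.

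Hair cell-like cells held 0 cycling cells of 106 and 3 of 155. For 0 of 106 the limit set by 3 counts is 2.83%. The 3 drug cells had 3, 9 and 11 of the 38 genes, with 3 UMIs of Mki67 and 4 of Top2a in all, and 1 of them carried C1qa. The epithelial cluster led by Ceacam16 and Epyc, genes of supporting cells, held 1 of 515 and 1 of 718, with 4 and 3 genes. A cluster with 8 of the neuron markers, which should not divide, held 1 of 451 and 2 of 457 (0.222% and 0.438%) at a median of 12751 and 9867 UMIs per cell. The intervals of the hair cell-like and supporting epithelial shares include the neuron shares. The neuron cluster was deeper than these classes, and deeper cells meet the rule more easily. Its shares are therefore not a background of equal depth, and whether hair cell-like or supporting cells cycle cannot be decided here. Pericyte-like (0 of 586 and 0 of 935), oligodendrocyte-like (0 of 254 and 0 of 305) and other cochlear epithelium-like cells (0 of 188 and 0 of 217) had none, which allows shares of up to 0.512% and 0.321%, 1.18% and 0.984%, and 1.60% and 1.38%.

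The 5 noise-only and 5 drug Schwann or satellite glia-like cells that met the rule had a maximum of 4 and 3 of the 38 genes and medians of 766 and 900 UMIs. They held 1 and 3 UMIs of the replication genes and 0 and 0 of the mitotic cyclins and kinases, so they lay at the edge of the rule. Mucosal type basal epithelium-like cells held 1 of 133 and 13 of 226, a ratio of 7.65 with an interval of 1.15 to 325. The cells of this class are deep, with medians of 4976 and 4338.5 UMIs, and after thinning to 1000 UMIs the counts were 0 of 130 and 1 of 225. The class also differed in its own markers, with Krt15 in 68.2% and 19.2% of its cells that were not cycling.

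Non-member genes gave a readout that the rule did not use. Of 29 other S phase genes with enough UMIs, 29 were higher (log2 ratio of at least 0.32) in cycling than in other noise-only cells, and 29 of 29 in drug cells. Of 39 other G2 and M phase genes 38 and 38 were higher, with medians of 6.21 and 5.91. Among all genes 25.0% and 22.7% were higher by this measure. Hmgb2, a chromatin protein of dividing cells, stood at 2305 CPM in cycling and 106 CPM in other noise-only cells, and at 2320 and 109 CPM in the drug library. Cks2, a Cdk1 partner chosen after its values were seen, was 31.5 and 36.0 times as high. The same held inside classes: in macrophage-like cells 21 of 21 and 19 of 19 of the S phase genes were higher, against 33.0% and 35.0% of all genes. A gene needed enough UMIs in cycling and other cells together. It could thus pass through the cycling cells alone, so these counts are partly set by the filter. The CDK inhibitors did not move as 1 group. Cdkn1b (p27) was at 0.332 and 0.422 times and Cdkn1c (p57) at 0.165 and 0.288 times its level in other cells, Cdkn2c (p18), chosen in the same way, was 4.94 and 7.36 times as high, and Cdkn1a (p21) was at 0.980 and 1.18 times.

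How far a gene marked cycling cells depended on its role. Of the Mki67 UMIs 98.6% and 96.3% lay in cycling cells, and of the Top2a UMIs 97.9% and 96.7%, which the rule itself brings about. For genes that the rule did not require, the share was 91.8% and 90.4% for Ccna2 (cyclin A2), 85.7% and 86.5% for Birc5 (survivin), 83.1% and 84.0% for Rrm2 (ribonucleotide reductase) and 79.7% and 78.4% for Tk1 (thymidine kinase). The MCM helicase subunits ran from 15.6% and 13.7% for Mcm4 to 46.0% and 50.4% for Mcm5. Pcna, the sliding clamp, was at 14.7% and 12.7%. The D cyclins were at 10.2% and 9.12% (Ccnd1), 3.59% and 3.19% (Ccnd2) and 7.13% and 8.54% (Ccnd3). Stmn1, a tubulin-binding protein also abundant in neural cells, was at 6.45% and 7.74%.

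**Figure D3:**
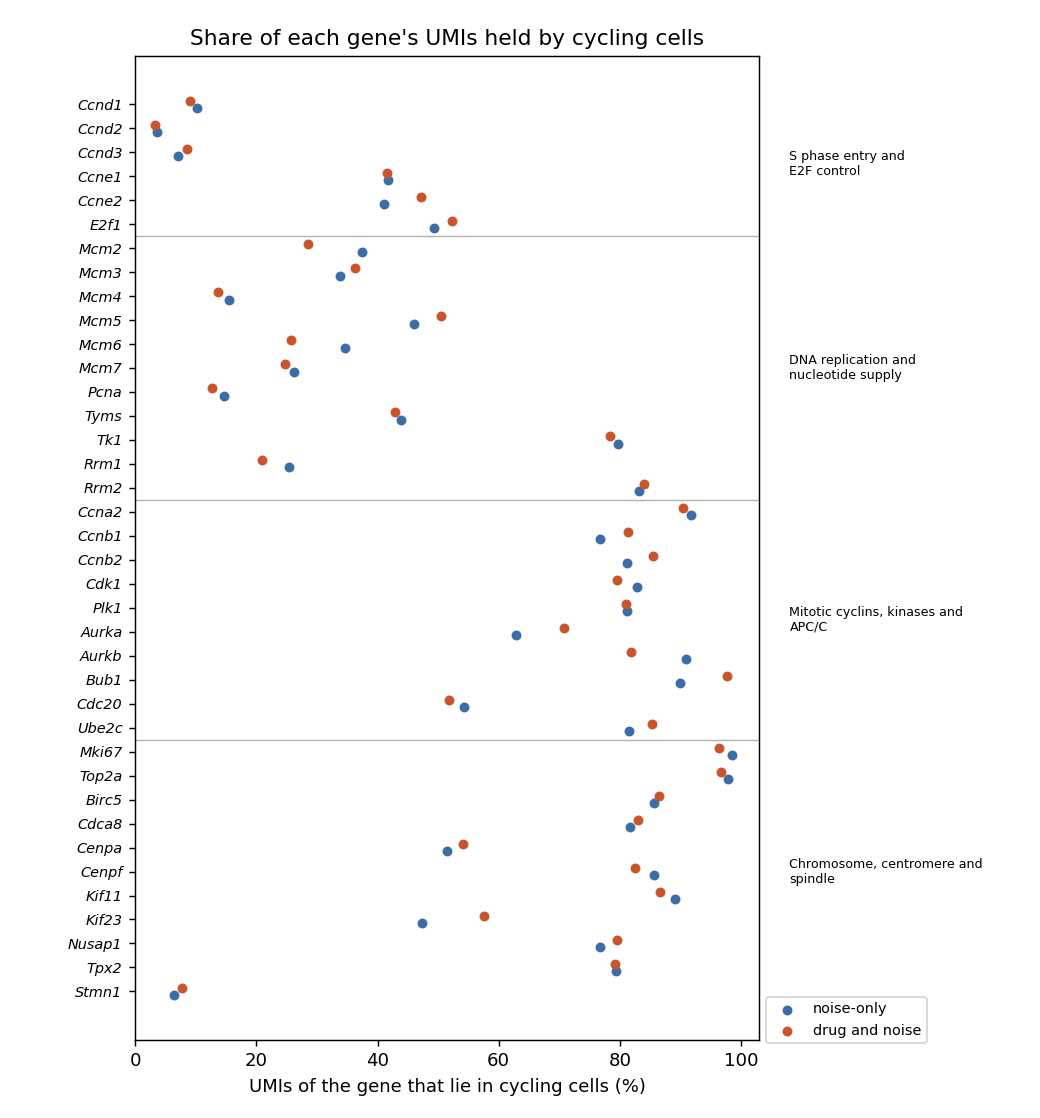
Percent of each gene's UMIs that lie in cycling cells (x axis) for the 38 genes grouped by role, noise-only in blue and drug in orange. Mitotic and spindle genes lie mostly above 50, while D cyclins, Mcm4, Pcna and Stmn1 lie below 20.

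Just inside the rule, 10 noise-only and 24 drug cycling cells had exactly 3 of the 38 genes. Just outside it, 16 and 26 cells had Mki67 or Top2a with 2 of the genes, and 1511 and 1166 cells had at least 3 of the genes without Mki67 or Top2a. The median cycling cell had 16 (noise-only) and 12 (drug) of the genes, at medians of 4807 and 3637 UMIs.

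Over all cells most of the cell cycle genes lay between the limits of a call. A gene was called higher or lower at a log2 ratio of drug to noise-only CPM of at least 0.32 or at most -0.32, which describes size alone, and needed 20 UMIs in both libraries together. Of the 38 genes 2 were higher and 3 lower, against 12.0% and 9.64% of all 17256 genes measured. The higher count was 4 with doublets kept, 5 with TMM factors and 1 among cells with at least 1000 genes. The median log2 ratio was 0.05, and over all genes it was -0.03. Mki67 (chr7:135689784-135716361, minus strand, GRCm38) had 635 UMIs (18.8 CPM) in the noise-only and 657 UMIs (21.4 CPM) in the drug library, a ratio of 1.14 (1.02 to 1.27). Top2a, the topoisomerase that untangles chromosomes (chr11:98992943-99024189, minus strand), had 667 UMIs (19.7 CPM) and 629 UMIs (20.5 CPM), a ratio of 1.04 (0.929 to 1.16).

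By role, 1 of the 6 genes of S phase entry was lower, Ccnd1 (cyclin D1), with 1760 UMIs (52.1 CPM) and 1107 UMIs (36.0 CPM) and a ratio of 0.692 (0.641 to 0.746). Of the 11 replication genes Tk1 alone was called, with 128 UMIs (3.79 CPM) and 74 UMIs (2.41 CPM), a ratio of 0.636 (0.471 to 0.853). Ccna2, with 122 and 156 UMIs (3.61 and 5.08 CPM), was at a ratio of 1.41 (1.10 to 1.80). Ube2c, the ubiquitin-conjugating enzyme of the APC/C, had 501 and 614 UMIs, a ratio of 1.35 (1.20 to 1.52). These were the higher 2 of the 10 mitotic genes, and none of that role was lower. Of the 11 chromosome and spindle genes Stmn1 was lower, at 665 and 476 CPM and a ratio of 0.716 (0.702 to 0.731), and the others lay between the limits, the nearest being Cenpf with 312 and 354 UMIs. Among the cells that were not cycling, 7 of 36 genes measured were higher and 4 lower, against 12.3% and 9.35% of all genes, on few UMIs: Mki67 had 9 and 24 UMIs there and Ccna2 10 and 15.

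**Figure D4:**
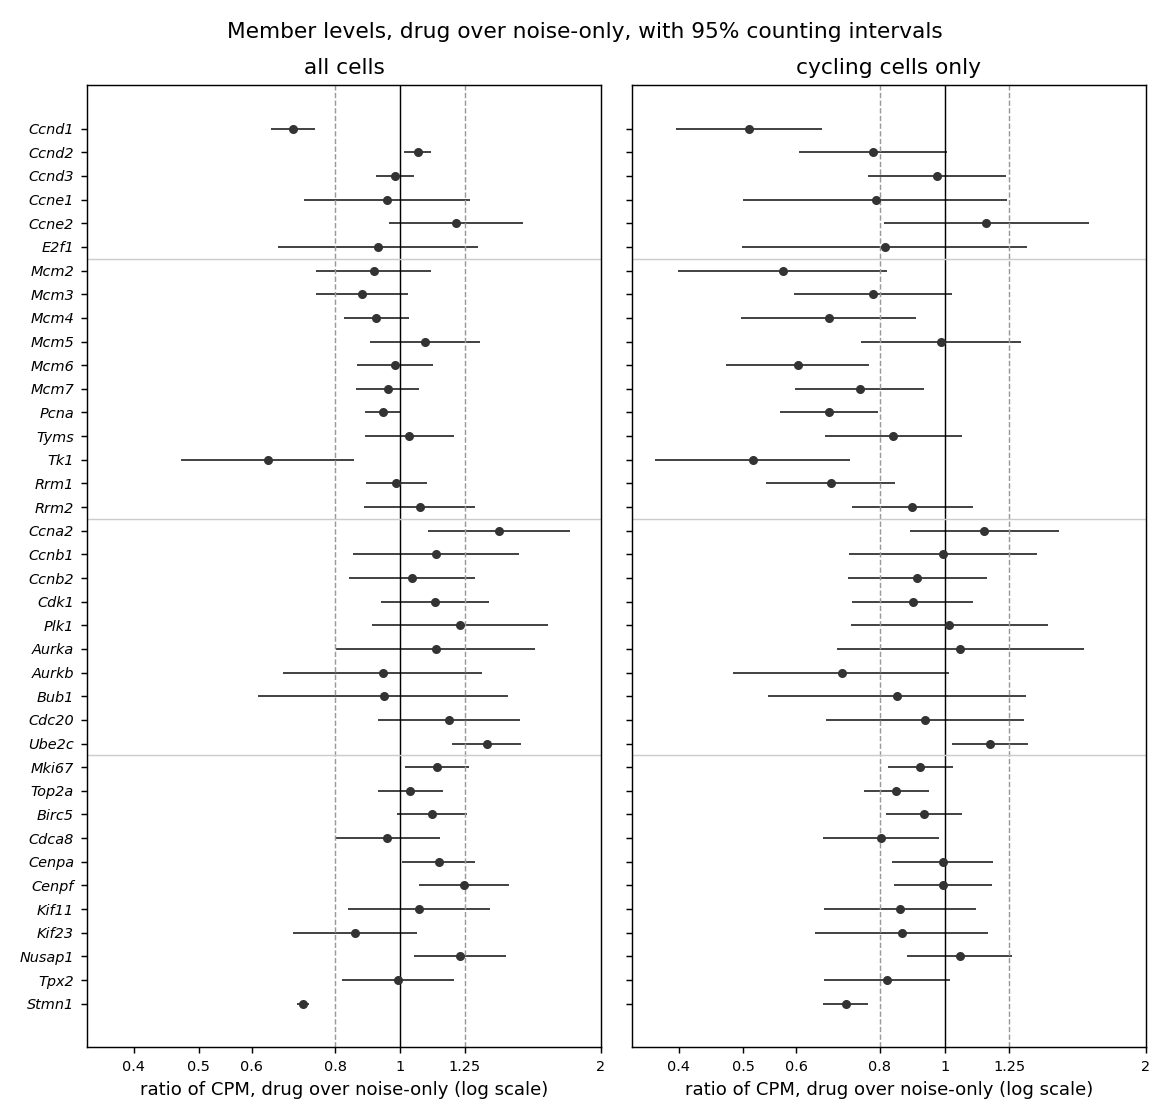
Ratio of drug to noise-only CPM (x axis, log scale) for the 38 genes over all cells (left) and in cycling cells only (right), with 95% counting intervals, the solid line at 1 and dashed lines at the limits for a call. Over all cells most genes lie between the dashed lines, and in cycling cells 8 of the 11 replication genes lie left of the lower limit.

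Inside cycling cells 8 of 11 replication genes and 1 of 10 mitotic genes were lower in the drug library. Here the cells were chosen by these same genes, by the same rule in both libraries. Of the 38 genes 0 were higher and 13 lower, against 16.7% and 33.0% of all 9085 genes measured, so that the count of lower genes was near the background. The median log2 ratio was -0.57 over the replication genes and -0.05 over the mitotic genes, beside -0.14 over all genes. The replication genes not called lower were Mcm5 (104 and 113 UMIs), Rrm2 (187 and 184) and Tyms (152 and 140). Tk1 was at 95.2 CPM in noise-only and 49.2 CPM in drug cycling cells (0.517, 0.368 to 0.721), Mcm2 at 78.4 and 45.0 CPM (0.574, 0.399 to 0.819), Mcm6 at 158 and 95.1 CPM (0.603, 0.470 to 0.770) and Pcna at 303 and 204 CPM (0.672, 0.566 to 0.796). Ube2c was at 381 and 445 CPM (1.17, 1.02 to 1.33) and Ccnb1 (cyclin B1) at 70.9 and 70.5 CPM (0.993, 0.719 to 1.37). Of 30 other S phase genes 19 were lower and 0 higher (median -0.37), and of 40 other G2 and M phase genes 14 were lower and 2 higher (median -0.15).

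Set against each other, the 11 replication genes supplied 58.5% (56.7 to 60.3) of the UMIs of the replication and mitotic genes in cycling noise-only cells and 50.1% (48.2 to 52.0) in cycling drug cells. Among classes with at least 10 cycling cells in all and more than 1 UMI of these genes in each library, the largest move was in the erythroid precursor-like class, from 67.6% (64.1 to 71.0) to 41.1% (37.6 to 44.7). Without that class the shares were 55.5% and 53.6%. In macrophage-like cycling cells the shares were 58.1% and 54.4%, in neutrophil-like 53.6% and 57.4%, in osteoblast or osteocyte-like 40.8% and 41.6%, in T or NK cell-like 68.3% and 62.5% and in B lineage-like 60.5% and 52.3%. In these 5 classes the intervals of the libraries overlapped.

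**Figure D5:**
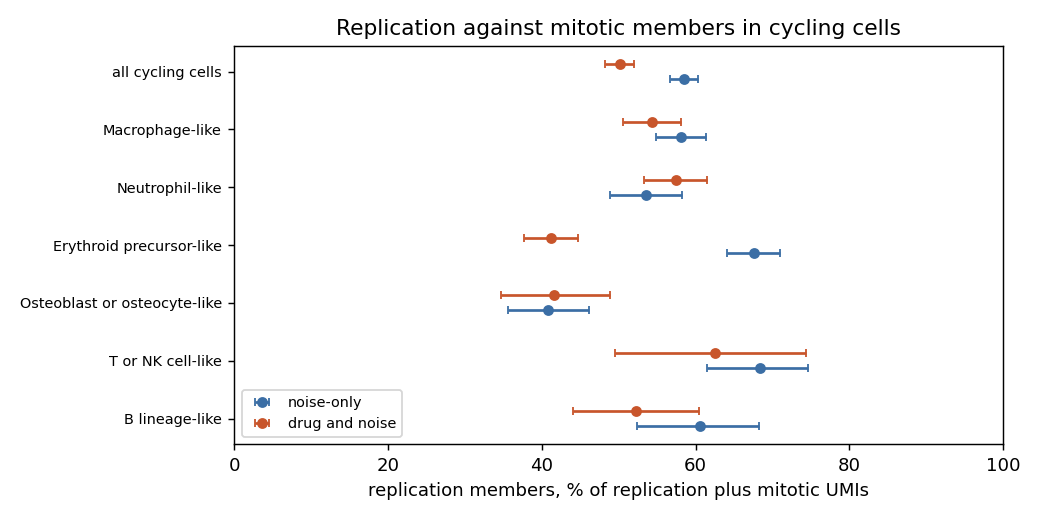
UMIs of the 11 replication genes as a percent of those of the 11 replication and 10 mitotic genes (x axis) in cycling cells, noise-only in blue and drug in orange, with exact 95% binomial intervals. The erythroid precursor-like class and all cycling cells together are where the intervals do not overlap.

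Levels were also summed over whole classes. In the erythroid precursor-like class 10 of 34 genes measured were higher and 14 lower, against 14.1% and 39.2% of all genes. Of 8 mitotic genes measured 5 were higher and 0 lower, with Ube2c at 117 and 247 CPM (2.11, 1.68 to 2.66) and of 11 chromosome and spindle genes 4 were higher and 2 lower, with Nusap1, a spindle protein, at 65.4 and 110 CPM (1.68, 1.23 to 2.33). Of 11 replication genes 0 were higher and 9 lower, with Mcm6 at 41.8 and 16.5 CPM (0.395, 0.213 to 0.707) and Mcm4 at 40.7 and 18.3 CPM (0.450, 0.248 to 0.793). Of the other S phase genes, 24 of 25 were lower, among them the histone chaperone Nasp at 76.1 and 25.7 CPM (0.337, 0.210 to 0.529). Cdkn2d (p19), a CDK inhibitor, was at 50.4 and 101 CPM (2.00, 1.41 to 2.88). These values stand beside the lower shares of Klf1 and Car1 positive cells among the cycling cells of that class in the drug library. Those cells were also shallower there (median 2735 against 5243.5 UMIs).

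In macrophage-like cells 4 of 37 genes were higher and 17 lower, against 18.1% and 17.0% of all genes. Tk1 was at 35.0 and 14.2 CPM (0.407, 0.245 to 0.657), Mcm2 at 28.2 and 12.5 CPM (0.444, 0.256 to 0.747) and Ccnd1 at 231 and 142 CPM (0.617, 0.525 to 0.724). The other D cyclins were higher, Ccnd2 at 92.5 and 116 CPM (1.26, 1.02 to 1.55) and Ccnd3 at 36.1 and 54.6 CPM (1.51, 1.09 to 2.11). In neutrophil-like cells 8 of 31 were higher and 9 lower, against 17.2% and 39.0% of all genes. Ccne2 (cyclin E2) was at 16.5 CPM from 6 UMIs and 67.1 CPM from 39 UMIs (4.08, 1.71 to 11.8). The inhibitor Cdkn1a was at 93.3 and 234 CPM (2.51, 1.71 to 3.77), and Cdk6, the kinase partner of D cyclins, at 123 and 46.5 CPM (0.376, 0.225 to 0.620).

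In the osteoblast or osteocyte-like class 5 of 30 genes were higher and 12 lower, against 17.3% and 28.7% of all genes, with Mki67 at 50.5 and 24.1 CPM (0.477, 0.272 to 0.797). In the strial intermediate cell or melanocyte-like class 12 of 17 genes were higher and 1 lower, against 17.2% and 19.8% of all genes, and its 3 and 8 cycling cells held 8 of 8 and 26 of 27 of the Mki67 UMIs. A gene could reach the UMI minimum through these few cells, which were chosen by the same genes. The count of higher genes is therefore not separate from the number of cycling cells. In T or NK cell-like cells 1 of 17 was higher and 14 lower, against 20.8% and 30.9%, and in B lineage-like cells 2 of 18 were higher and 11 lower, against 18.7% and 32.5%. Stmn1 was at 1207 and 567 CPM (0.469, 0.371 to 0.590) in the first of these and at 1015 and 440 CPM (0.433, 0.333 to 0.561) in the second. Both classes had few cycling cells, 12 and 7 in the first and 8 and 7 in the second. Their counts of lower genes can thus rest on the number of those cells.

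Most UMIs of the D cyclins and Stmn1 lay outside cycling cells. Ccnd1 was lower in the drug library in Schwann or satellite glia-like cells, at 42.0 and 18.5 CPM (0.440, 0.326 to 0.587), where 2 of 13 genes were higher and 5 lower against 12.8% and 15.4% of all genes. It was also lower in the mucosal epithelium, at 382 and 118 CPM (0.309, 0.252 to 0.378), where 5 of 11 were higher and 3 lower against 26.7% and 25.7%. Chosen after the values were seen, the classes with the highest levels were smooth muscle-like cells for Ccnd2, at 409 and 407 CPM (0.996, 0.848 to 1.17), and oligodendrocyte-like cells for Stmn1, at 3313 and 2604 CPM. Stmn1 was at 1799 and 1600 CPM (0.890, 0.860 to 0.920) in Schwann or satellite glia-like cells. It was lower, with an interval below 1, in 12 of the 24 classes of at least 100 cells, as were 0.226% of the 4867 genes measured in at least 20 classes in as many, and higher with an interval above 1 in 3. Those genes are not matched to Stmn1 in UMIs, which narrow the intervals, and the classes share the same libraries. Schwann or satellite glia-like cells were 6758 of 16618 cells in the noise-only and 4021 of 17536 in the drug library, and the part of that difference in the Stmn1 levels of other classes was not tested.

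Of the 7 CDK inhibitors 4 were lower over all cells and 1 higher, against 9.64% and 12.0% of all genes. Their median log2 ratio was -0.39, and among cells with at least 1000 genes 1 was lower and 2 higher. Cdkn1a, the p53 target p21, was at 387 and 296 CPM (0.764, 0.744 to 0.785), Cdkn1b at 283 and 210 CPM (0.743, 0.720 to 0.767) and Cdkn1c at 160 and 121 CPM (0.754, 0.722 to 0.786). Levels over all cells mix classes captured in unequal numbers, Schwann or satellite glia-like cells among them. The part of class make-up in these ratios was not tested. Cdkn1a was lower with an interval below 1 in 13 of 24 classes, as were 0.164% of the 4867 genes measured in at least 20 classes in as many, and higher in 1, the neutrophil-like class. Cdkn1b was lower in this way in 2 of 24 classes, as were 31.4% of those genes in as many, and Cdkn1c in 6 of 23, as were 2.42%. Genes with more UMIs have narrower intervals, so the 4867 genes are not a background of equal depth. The classes also share the same libraries and are not separate observations. In hair cell-like cells Cdkn1c was at 149 CPM from 52 UMIs and 39.2 CPM from 13 UMIs (0.263, 0.131 to 0.489), and Cdkn1b, known for keeping the cells of the organ of Corti out of the cycle, at 158 CPM from 55 UMIs and 81.4 CPM from 27 UMIs (0.516, 0.313 to 0.832). Among all genes of the hair cell-like class 21.2% were higher and 26.8% lower. In the epithelial cluster led by Ceacam16 and Epyc, genes of supporting cells, Cdkn1b was at 277 and 275 CPM (0.993, 0.853 to 1.16). In Schwann or satellite glia-like cells Cdkn1a was at 1053 and 985 CPM (0.935, 0.896 to 0.976).

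Over all cells 12.0% of all genes measured were higher and 9.64% lower. Beside these shares, the small counts in the lists that follow are not read as a change of a list. Of 12 p53 response genes 2 were lower over all cells and 0 higher: Phlda3, at 98.7 and 70.7 CPM (0.716, 0.678 to 0.756), and Gadd45a, at 58.5 and 46.0 CPM (0.787, 0.734 to 0.843). Of 16 RB, E2F and DREAM genes 3 were higher and 0 lower, with E2f2 at 2.16 and 3.78 CPM (1.75, 1.29 to 2.37). Of 31 other S phase genes 0 were higher and 4 lower, with the replication origin factor Cdc45 at 3.05 and 2.02 CPM (0.662, 0.475 to 0.916). Of 40 other G2 and M phase genes 6 were higher and 5 lower, with the cohesion protector Sgo1 at 1.54 and 2.54 CPM (1.65, 1.15 to 2.39) and Anln, a scaffold of the cleavage furrow, at 37.1 and 23.5 CPM (0.633, 0.577 to 0.695). None of the 8 interphase CDK genes was called in either direction.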

How the data were processed

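The deposited files are 2 matrices of raw whole UMI counts by gene and barcode. Per the file headers they come from Cell Ranger 5.0.1. Per the submitters' processing notes the tools were Cell Ranger 5.0, Seurat 3.2.2 and STAR, and the genome was GRCm38 (also listed as mm10). Which annotation release was used is not given. The smallest barcode total in each file was 500 UMIs. The noise-only file holds 18545 barcodes with 38380393 UMIs and the drug file 21773 with 39939170. Filters on genes and UMIs left 17667 and 20522 barcodes and the mitochondrial limit 17423 and 20133. Scrublet, run in scanpy 1.11.5 after these filters with an expected rate of 0.08, called 805 (4.62%, score threshold 0.264) and 2597 (12.9%, threshold 0.164) doublets, which were removed. The thresholds were set per library, so the doublet call was looser in the drug library.

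Both libraries were clustered together on 3000 variable genes without batch integration (30 principal components, 15 neighbours, Leiden resolution 1). The members and the other cell cycle lists, 152 genes, were kept out of the variable genes so that cycling cells were placed by type. Of 39 clusters 8 stayed unnamed. A name needed at least 3 markers of 1 of 35 types, each 2 times as high as elsewhere and detected in 10% of the cluster's cells, with a marker among its 10 leading genes and no other type with more there. Class names were rebuilt from markers and are not the authors'. UMIs were summed by library and class and divided by the library's sum there (CPM). Ratios have exact conditional binomial intervals, shares exact Clopper-Pearson intervals, and 0.5 UMI was added before taking log2. UMIs of 1 cell are not independent draws, so intervals cover counting error only. A share at 0 is given the limit of 3 counts. For thinning to 1000 UMIs, 7320 and 7662 shallower cells were left out. Tested on simulated counts for all genes with at least 20 UMIs over all cells, 100% of 50 genes set 2 times higher and 100% of 47 set to 0.5 were called, and 4.60% and 4.40% of 16921 unchanged genes were called higher and lower. Of 50 set to 1.5, 98% were called higher, and 88% of intervals held the set value. Of 50 set to 0.67, 90% were called lower and 2% higher. The simulated counts had Poisson error alone, without spread between cells or captures, and did not cover sums of classes or cycling cells.

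The members, lists and markers were chosen with earlier results of these data known. All 38 members could be named over all cells, and by class those with 20 UMIs in classes with at least 10 cycling cells. From each other list up to 3 genes per direction were named by the interval bound nearest 1, plus Cdkn1a, Cdkn1b, Cdkn1c and Hmgb2. The statements on Cdkn1b and Cdkn1c in hair cell-like cells, and on Cdkn1b in the cluster led by Ceacam16 and Epyc, were chosen after their values were seen. Tools were scikit-learn 1.9.0, igraph 0.11.9, scipy 1.17.1 and numpy 2.4.6 on Python 3.11.15, pandas 2.3.3, matplotlib 3.10.9, and edgeR 4.0.16 on R 4.3.3 (TMM factors 1.01 and 0.988). Gene coordinates are from GENCODE M21 on GRCm38. Alternatives covered doublets, cell filters, the cycling rule, thinning, clustering, class weights, UMI minimum, scaling and the top cell of each gene.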

Additional observations from a re-analysis of the deposited data

Results flagged for a closer look

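Cycling cells also appeared among barcodes that the comparisons leave out. Of the predicted doublets, 7 of 805 noise-only barcodes (0.870%, 0.350 to 1.78) and 58 of 2597 drug barcodes (2.23%, 1.70 to 2.88) met the cycling rule. The ratio was 2.57 (1.17 to 6.67). With doublets kept, the ratio of the cycling share over all cells was 1.42 in place of 1.32. Barcodes over the mitochondrial limit held 0 of 244 and 2 of 389 cycling cells, and those under 300 genes 0 of 878 and 2 of 1251.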

How the results depend on the processing

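No paired analysis was possible because each group is 1 pooled library with no replicate numbers. Of the values for main results under an alternative, 213 stayed within counting error or within 1.5 times for counts, and 22 moved; of those for single genes 172 stayed and 16 moved; no called value changed direction. Weighting the classes as in the noise-only library took the ratio of cycling shares over all cells to 1.06. With at least 1000 genes per cell the ratio was 1.26 in macrophage-like and 1.04 in neutrophil-like cells, and with cell cycle genes kept in clustering it was 0.392 in macrophage-like cells. At resolution 2 it was 0 in osteoblast or osteocyte-like cells. Leaving out the erythroid precursor-like class, an alternative added after seeing the data, took the drop of the replication share from -8.42 to -1.91 percentage points.

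The count of members higher (2) was 4 with doublets kept, 1 with at least 1000 genes, 5 with TMM factors and, in an alternative added after seeing the data, 7 without cycling cells, where Mki67 had 9 and 24 UMIs left. Other G2 and M phase genes numbered 3 lower (from 5) with doublets kept and 3 higher (from 6) without cycling cells. Other S phase genes numbered 2 lower (from 4) with at least 1000 genes and 2 with TMM factors, and 1 higher (from 0) without cycling cells. CDK inhibitors numbered 0 higher (from 1) with doublets kept, and 2 higher and 1 lower (from 4) with at least 1000 genes. p53 response genes numbered 1 higher (from 0) with at least 1000 genes, with TMM factors and without cycling cells, and 1 lower (from 2) with TMM factors. The cause of these moves was not tested. With 1 library per group, no setting gives an error between animals, and shares in classes with few cells are limited by their cell number.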
